A study of Mus musculus with 24 samples.

Results

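Lymphoid progenitors (LPs) deleted for *Med12*, which encodes a subunit of the Mediator complex, were set directly against LPs deleted for *Cbfb*, which encodes the shared partner of the RUNX transcription factors. The comparison uses 6 of the 24 QuantSeq libraries of the series, the 3 sgMed12 and the 3 sgCbfb libraries of the second experiment, taken from the sample labels. All 6 came from Cas9-LPs, by the study's methods derived from the fetal liver of mice that lack *Ebf1* and carry Cas9 at Rosa26. All groups thus share these alleles. *Ebf1* reads were present, at 161 to 216 CPM in sgCbfb, 197 to 339 CPM in sgMed12 and 233 to 308 CPM in sgControl libraries. Which part of the gene the deletion removes was not analysed here, so this 3′ tag does not check the genotype. The cells grew on mitomycin C-treated OP9 stroma with SCF, Flt3L and IL-7 and without a Notch ligand. They were transduced with retroviral sgRNA-hNGFR vectors, 3 guides per gene as a pool, and hNGFR+CD45+ cells were sorted 5 days later. The share of edited alleles in a library was not analysed here. The sgControl LPs of the same experiment (3 libraries, guides against luciferase) were not part of the contrast, and their values are given beside it.

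RUNX proteins bind DNA in a heterodimer with CBFβ, which raises their affinity for DNA, and they act both as activators and as repressors in blood progenitors and in T-lineage development. Mediator links DNA-bound factors to RNA polymerase II. MED12 belongs to its kinase module, with MED13, cyclin C and CDK8 or CDK19, which joins the core complex reversibly. The study reports that loss of *Cbfb* or of *Med12* impaired the formation of CD25+ T-cell progenitors after Notch stimulation. In LPs without Notch stimulation, the setting compared here, it reports that loss of *Cbfb* or of *Ctcf* made CD25+ cells appear. It does not report this for loss of *Med12*.

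QuantSeq reads the 3′ end of polyadenylated mRNA, and values are given in CPM, the standard unit in which each gene's reads are scaled to the same total in every library. The 6 libraries held 3354483 to 3969498 reads on genes, and the limit set by a count of 0 was 0.756 to 0.894 CPM, which covers counting error only. A gene was called when limma's adjusted P value was under 0.05, the group means differed more than 2-fold and one mean was over 10 CPM. Differences are sgMed12 minus sgCbfb of log2(CPM + 1), so that changes of weakly expressed genes come out too small. The study calls its replicates biological. *Ptprc*, *Flt3*, *Il7r* and *Hoxa9*, which mark these progenitors, were at 87.4 CPM or more in all 6 libraries. *Cd34*, *Cd44*, *Ikzf1*, *Spi1* and *Bcl11a*, listed with them, were at 56.6 CPM or more. Of these 9, *Cd34*, *Cd44* and *Flt3* were lower in every sgMed12 than in every sgCbfb library, and *Ikzf1* and *Bcl11a* were higher. The rest of that list was also lower in sgMed12 than in sgCbfb libraries. *Kit* was at 29.4 to 34.6 and 54.3 to 79.4 CPM, *Rag1* at 7.38 to 9.88 and 54.2 to 80.1 CPM, and *Dntt* at 9.01 to 10.7 and 243 to 303 CPM. *Cd3e*, *Cd79a*, *C1qa* and *S100a8* were at 0 in each of the 6 libraries. Other markers of these lineages were read: the macrophage marker *Adgre1* was at 35.6 to 83.4 CPM in the 6 libraries, *Mrc1* at 447 to 508 CPM in sgCbfb and 2.54 to 7.38 CPM in sgMed12, and the neutrophil marker *Mpo* at 9.57 to 23.3 CPM and 5.37 to 6.68 CPM. The B-lineage marker *Pax5* was at 0.503 to 1.49 CPM in sgCbfb and 4.52 to 8.72 CPM in sgMed12, and the T-lineage marker *Bcl11b* at 1.34 to 4.53 CPM and 60.7 to 63.6 CPM. The part of other cell types in the differences was not tested. The stromal markers *Col1a1* and *Col1a2* reached 4.77 CPM in sgCbfb and 16.7 CPM in sgMed12 libraries. The part of stromal RNA in the differences was not tested.

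The replicates were not equally placed. Over the genes tested, sgMed12 replicate 2 had a mean correlation of 0.976 with the sgControl libraries, against 0.958 and 0.966 for sgMed12 replicates 1 and 3. With the other sgMed12 libraries its mean correlation was 0.966, against 0.968 and 0.973 for replicates 1 and 3. Replicate 2 was thus closer to sgControl than to its own group. Among the genes higher in sgMed12, replicate 2 was the sgMed12 library nearest to the sgCbfb side for 57.3%, and among those higher in sgCbfb for 48.3%. Among the genes higher in sgCbfb, sgCbfb replicate 3 was the sgCbfb library nearest to the sgMed12 side for 54.2%. Without sgCbfb replicate 3, 225 genes were called higher in sgMed12 and 375 in sgCbfb LPs. Counts without sgMed12 replicate 2, which moved more, are given with the results.

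The targeted genes were read first. *Cbfb* (ENSMUSG00000031885, chromosome 8 from 105170674 to 105217989 in GRCm38) stood at 48.3, 41.6 and 55.4 CPM in the sgCbfb libraries and at 59.9, 114 and 88.6 CPM in the sgMed12 libraries. The sgControl libraries held 110.0, 109 and 124 CPM. The sgCbfb libraries were all lower than the sgMed12 libraries, and sgMed12 replicate 1 came closest to them. The difference of 0.80 (SE 0.16, limma adjusted P = 0.00098) did not reach the 2-fold limit.

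*Med12* (ENSMUSG00000079487, chromosome X from 101274030 to 101297465) was low, at 9.61, 3.2 and 8.23 CPM in sgMed12, 7.15, 6.97 and 5.54 CPM in sgCbfb and 6.59, 4.43 and 4.38 CPM in sgControl libraries. The groups overlapped (difference -0.02, SE 0.35, limma adjusted P = 0.98). A small deletion or insertion in the coding sequence need not change the level of a 3′ tag, so this value does not check the sgMed12 label. *Med12* also shares 749 exon bases with *Gm21986* on the same strand. Whether reads of *Med12* were lost or assigned to that gene was not tested. The study checked depletion by immunoblots of CBFβ and MED12 protein in Cas9-LPs that received guides against these genes, on an earlier day after transduction. None of the 7 members of the kinase module and none of 26 core Mediator subunits were called by limma or by edgeR. At an unadjusted P under 0.05, 1 member of the kinase module was higher and 3 were lower in sgMed12 LPs, and 2 core subunits were higher and 0 lower. The limma adjusted P was under 0.05 for 3 of the 7 and 2 of the 26, without the fold and level needed for a call. *Med12l*, the paralog of *Med12*, was at 50.4, 53.6 and 51.9 CPM in sgCbfb and 31.1, 18.9 and 32.6 CPM in sgMed12 libraries, a difference of -0.93 (SE 0.19, limma adjusted P = 0.0009).

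Of 13177 genes tested, 590 (4.48%) were called. In sgMed12 LPs 232 (1.76%) were higher, and in sgCbfb LPs 358 (2.72%) were higher. The libraries of both groups did not overlap for 221 of the 232 and 352 of the 358, against 28.1% of all genes tested. The call was made on these same libraries and favours such genes, so this is no separate support. The means differed more than 4-fold for 69 of the 232 and 116 of the 358. By adjusted P alone, 927 (7.03%) were higher in sgMed12 and 1288 (9.77%) in sgCbfb LPs. Without sgMed12 replicate 2 the counts by the full rule were 348 and 421, and 223 of the 232 and 334 of the 358 remained called. The quasi-likelihood test of edgeR on recovered reads called 244 and 358 (4.57% of the genes tested, both directions together), with all 232 and 357 of the 358 among them.

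**Figure D1:**
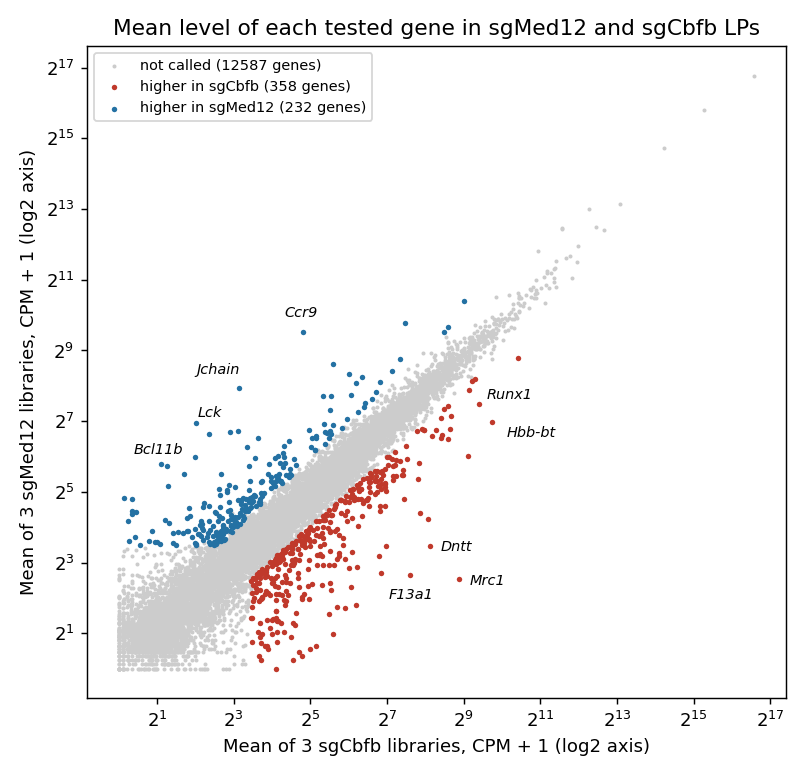
Mean CPM + 1 of each tested gene over the 3 sgCbfb libraries (x axis) and the 3 sgMed12 libraries (y axis), both on log2 axes, with 1 point per gene. The 232 genes called higher in sgMed12 are blue, the 358 called higher in sgCbfb are red, and *Mrc1* lies farthest below the diagonal with means of 472 and 4.76 CPM.

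The RUNX genes themselves differed. *Runx1*, the main RUNX gene of blood progenitors, stood at 583, 650.3 and 561 CPM in sgCbfb and at 298, 261 and 286 CPM in sgMed12 libraries. It was 2.12-fold higher in sgCbfb LPs (difference -1.08, SE 0.10, limma adjusted P = 1.1e-08), and the sgMed12 values lay near the 249, 283 and 239 CPM of the sgControl libraries. *Runx2* was also higher in sgCbfb LPs, with 67.7, 88.8 and 65.8 CPM against 35.9, 35.5 and 36.3 CPM (limma adjusted P = 6.5e-05), a call that was lost without sgCbfb replicate 2. *Runx3* was at 331, 356 and 339 CPM and 296, 238 and 293 CPM, and its difference of -0.31 (limma adjusted P = 0.03) was under the 2-fold limit.

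The T-lineage lists differed in their counts. All list counts stand beside 1.76% of all genes tested called higher in sgMed12 and 2.72% called higher in sgCbfb LPs. Of 25 tested genes of the T-cell receptor and its proximal signalling, 10 were higher in sgMed12 and 3 in sgCbfb LPs, with a median difference of 1.0 against -0.02 over all genes tested. In these bulk libraries, fewer cells of a type and less RNA per cell cannot be told apart. Without sgMed12 replicate 2 the counts were 11 and 4. Of 14 tested early T-lineage transcription factors, 1 was higher in each group, with a median of 0.07. *Lck*, the kinase that starts T-cell receptor signalling, stood at 97.8, 108 and 104 CPM in sgMed12 and at 5.37, 6.97 and 7.3 CPM in sgCbfb libraries. That is 15.8-fold (difference 3.80, SE 0.14, limma adjusted P = 4.5e-16), and the sgControl libraries held 99.2, 117 and 88.2 CPM.

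*Bcl11b*, which encodes a transcription factor of T-lineage commitment, gave 63.6, 60.7 and 61.6 CPM in sgMed12 and 2.98, 1.34 and 4.53 CPM in sgCbfb libraries. The groups were 21.0-fold apart (difference 4.08, SE 0.23, limma adjusted P = 1e-12). *Trdc*, the constant segment of the T-cell receptor delta chain, gave 427, 321 and 425 CPM against 33.7, 47.7 and 61.2 CPM, 8.23-fold (limma adjusted P = 8.8e-14). *Thy1*, a surface glycoprotein of early T cells, gave 272, 243 and 292 CPM against 64.1, 73.2 and 80.4 CPM (limma adjusted P = 5.9e-11), and here all sgMed12 libraries also exceeded the 186, 149.7 and 203 CPM of sgControl. The adaptor *Lat*, the kinase *Txk*, the receptor chain *Cd247*, the constant segments *Trac*, *Trbc2* and *Trgc4*, and *Sh2d2a* were the other members higher in sgMed12.

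The genes of this list that were higher in sgCbfb LPs were *Trgc1*, *Lcp2* and *Cd28*. *Lcp2* encodes the adaptor SLP-76, and it stood at 43.5, 43.4 and 57.4 CPM in sgCbfb and 3.11, 9.3 and 7.66 CPM in sgMed12 libraries (difference -2.77, SE 0.32, limma adjusted P = 5.8e-07). *Trgc1* and *Trgc4*, constant segments of the same gamma chain locus, therefore differed in opposite directions. *Trgc1* had 579.8, 684 and 609 CPM in sgCbfb and 253, 333 and 296 CPM in sgMed12 libraries, and *Trgc4* 41.7, 47.7 and 31.0 and 100.3, 141 and 118 CPM. Whether reads of the 2 segments were assigned to the right one was not tested. *Zap70* (10.5, 8.14 and 9.93 CPM against 0, 0.268 and 0.251 CPM, limma adjusted P = 1.9e-08) missed the level of 10 CPM by its mean of 9.51 CPM, and was called without sgMed12 replicate 2. *Tcf7*, which encodes TCF1, was listed at 0 in all sgCbfb libraries and at 4.52, 1.16 and 3.41 CPM in sgMed12 (limma adjusted P = 0.00039), also under that level.

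Genes of cytotoxic and innate lymphoid cells, many shared with T cells, were counted next. Of 21 tested, 5 were higher in sgMed12 and 1 in sgCbfb LPs, with a median difference of 0.91. The cathepsin *Ctsw* gave 51.4, 40.1 and 42.3 CPM in sgMed12 and 3.28, 0.804 and 2.77 CPM in sgCbfb libraries, 19.5-fold (limma adjusted P = 2.8e-12). *Il18r1*, a receptor chain for IL-18, gave 43.8, 35.7 and 53.9 CPM against 5.37, 5.9 and 4.79 CPM (limma adjusted P = 7.3e-12). *Nkg7*, *Il2rb* and *Cd7* had almost no reads in sgCbfb libraries. *Nkg7*, a granule protein of killer cells, had 207 reads over the sgMed12 and 3 over the sgCbfb libraries, a ratio of CPM of 72.6 with an exact 95% counting interval of 24.5 to 355.0. *Il2rb* had 218 and 4 reads (ratio 57.4, interval 22.1 to 212.0). Intervals of this kind pool the reads of a group and cover counting error only, not the spread between replicates. *Ccl5*, a chemokine, was the 1 member higher in sgCbfb, at 17.0, 26.8 and 21.2 CPM against 0, 0.871 and 1.7 CPM.

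Other genes also had large differences in favour of sgMed12. *5830411N06Rik* (chromosome 7 from 140247284 to 140300736), a scavenger receptor gene known as *Scart2* in gamma-delta T cells, gave 108, 131 and 129.7 CPM in sgMed12 and 1.49, 2.68 and 5.04 CPM in sgCbfb libraries, 40.1-fold (difference 5.02, SE 0.21, limma adjusted P = 3.9e-15). *Cd163l1*, its neighbour on the same strand at chromosome 7 from 140218267 to 140231145, had 286 reads over the sgMed12 and 1 over the sgCbfb libraries (ratio 301.0, exact 95% counting interval 53.6 to 11900.0). *Smim5* had 279 and 3 reads (ratio 97.9, interval 33.1 to 477.0), and the chemokine receptor gene *Cxcr5* 220 and 3 (ratio 77.2, interval 26.1 to 377.0). The sgMed12 libraries were unequal for *Cxcr5*, at 32.5, 8.43 and 21.6 CPM.

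*Ccr9*, the receptor for a thymic and gut chemokine, was the most abundant of the 8 genes named for their size of difference. It gave 922, 536 and 751 CPM in sgMed12 and 27.4, 24.4 and 29.0 CPM in sgCbfb libraries, 27.3-fold (difference 4.69, SE 0.16, limma adjusted P = 1.1e-16). The spread within sgMed12 was wide, and replicate 2 was lowest and close to the 627, 536 and 439.5 CPM of sgControl. *C1ql2* gave 102, 87.2 and 104 CPM against 3.88, 2.95 and 5.54 CPM and *Bace1*, a membrane protease, 25.7, 45.0 and 33.2 CPM against 1.79, 1.34 and 1.26 CPM (limma adjusted P = 2.7e-15 and 3.4e-12).

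**Figure D2:**
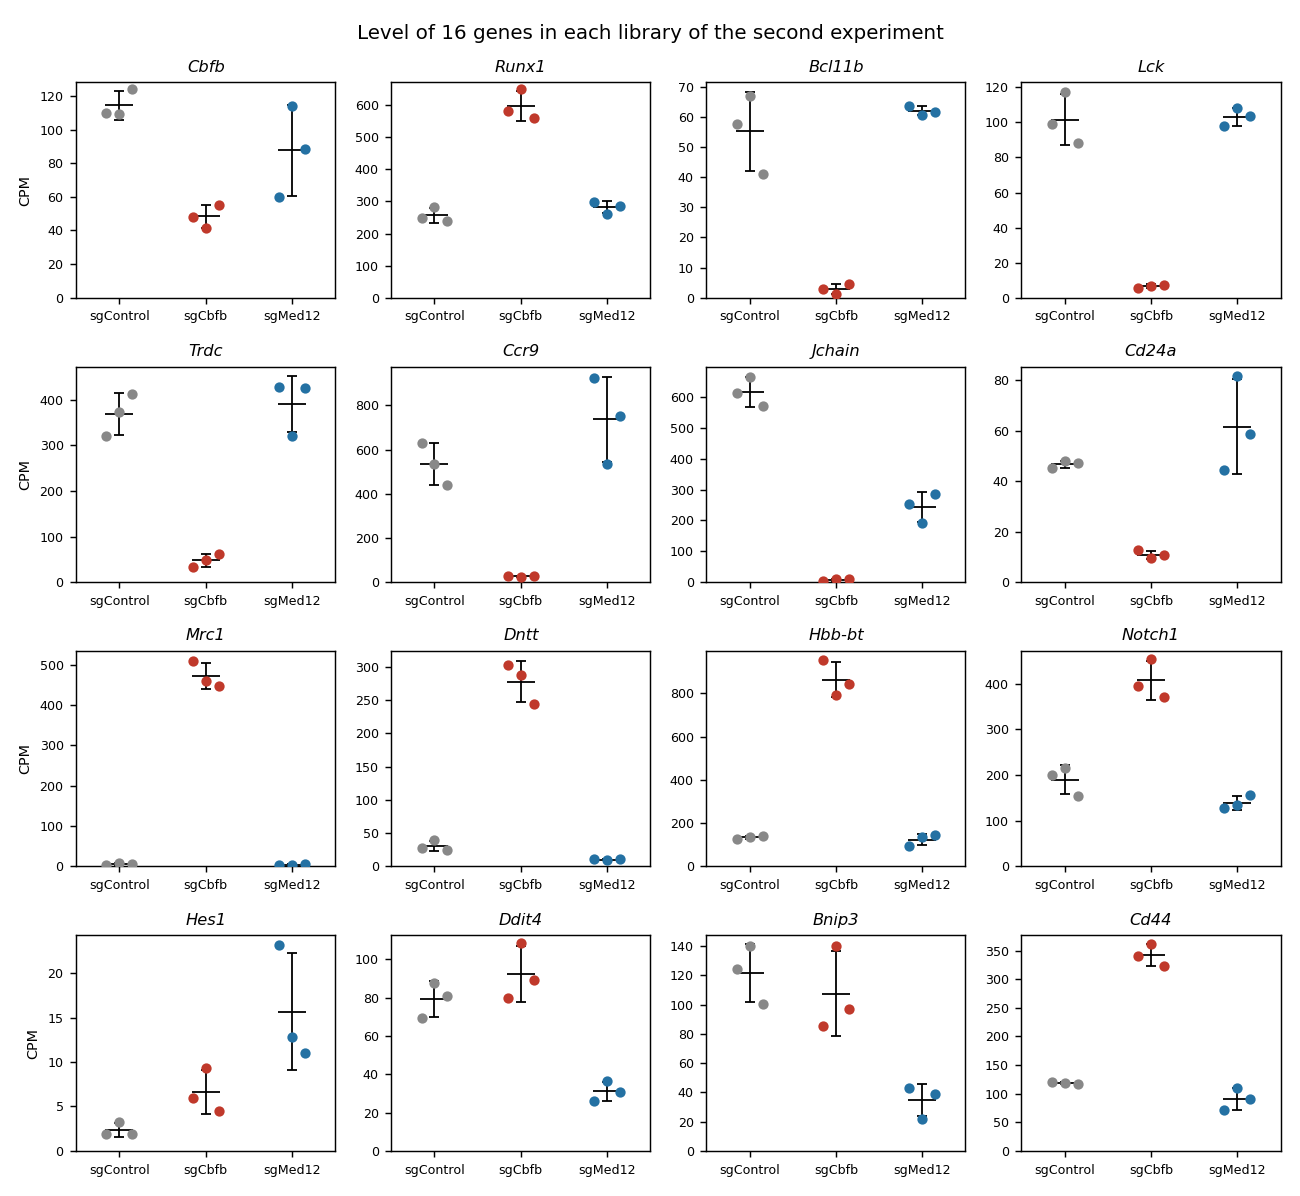
CPM of 16 genes in each of the 3 sgControl (grey), sgCbfb (red) and sgMed12 (blue) libraries of the second experiment, in the order of replicates 1 to 3, each panel on its own linear axis from 0, with bars for the mean and SD. For *Lck*, *Bcl11b*, *Trdc*, *Mrc1* and *Hbb-bt* the sgMed12 points lie with sgControl and the sgCbfb points apart, while for *Ddit4* and *Bnip3* the sgMed12 points lie apart.

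Lymphoid priming genes were split. Of 19 tested genes of B-lineage and lymphoid priming, 3 were higher in sgMed12 and 4 in sgCbfb LPs. *Jchain*, the joining chain of polymeric antibodies, gave 254, 191 and 284 CPM in sgMed12 and 4.47, 9.38 and 9.82 CPM in sgCbfb libraries, 30.8-fold (difference 4.82, SE 0.17, limma adjusted P = 3.1e-16). Both groups lay under the 613, 665 and 570.1 CPM of sgControl. *Ly6d*, a surface mark of lymphoid progenitors, gave 46.3, 61.0 and 49.7 CPM against 0.298, 2.95 and 1.01 CPM (limma adjusted P = 2e-12) and 115, 137 and 77.7 CPM with sgControl. *Cd24a* gave 44.4, 81.7 and 58.5 CPM against 12.5, 9.38 and 10.6 CPM (limma adjusted P = 8.1e-10).

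The 4 higher in sgCbfb LPs were *Dntt*, *Rag1*, *Rag2* and *Foxo1*, of which the first 3 act in the rearrangement of antigen receptor genes. *Dntt*, the terminal transferase, stood at 303, 287 and 243 CPM in sgCbfb and at 10.7, 9.01 and 10.5 CPM in sgMed12 libraries, 27.5-fold (difference -4.65, SE 0.17, limma adjusted P = 4e-16). The sgControl libraries held 27.2, 39.3 and 25.3 CPM, above every sgMed12 and below every sgCbfb library. *Rag1* gave 68.6, 54.2 and 80.1 CPM against 9.04, 9.88 and 7.38 CPM and *Rag2* 27.1, 24.1 and 30.2 CPM against 11.3, 15.1 and 10.8 CPM (limma adjusted P = 1.5e-08 and 0.0025).

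*Mrc1* (ENSMUSG00000026712, chromosome 2 from 14229392 to 14332057), the macrophage mannose receptor, had the largest difference of all genes in favour of sgCbfb among those with reads in all 6 libraries. It gave 508, 460.2 and 447 CPM in sgCbfb and 2.54, 4.36 and 7.38 CPM in sgMed12 libraries, 99.1-fold (difference -6.44, SE 0.27, limma adjusted P = 3.3e-15), with 4.22, 8.86 and 5.6 CPM in sgControl. *F13a1*, a coagulation factor subunit of monocytes and megakaryocytes, followed with 166, 228 and 188 CPM against 4.52, 5.81 and 5.39 CPM, 37.0-fold (limma adjusted P = 1.9e-13). These genes did not speak for the whole monocyte and macrophage list. Of 24 tested, 4 were higher in sgCbfb and 3 in sgMed12 LPs, the latter *Clec12a* (144, 179.6 and 149 CPM against 46.8, 47.5 and 40.8 CPM), *Klf4* and *Vcan*. *Csf1r*, the receptor that defines macrophages, was at 1.79, 2.95 and 0 CPM in sgCbfb and 0, 1.16 and 0.283 CPM in sgMed12 libraries.

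Among erythroid and megakaryocyte genes, 3 of 12 tested were higher in sgCbfb and 1 in sgMed12 LPs. Without sgMed12 replicate 2 the counts were 3 and 2. *Hbb-bt*, an adult beta-globin gene, gave 952, 792 and 845 CPM in sgCbfb and 94.4, 134 and 144 CPM in sgMed12 libraries, 6.94-fold (difference -2.80, SE 0.15, limma adjusted P = 2.2e-13). Reads of near-identical beta-globin copies cannot be told apart with certainty. The alpha-globin gene *Hba-a1* and the erythroid factor *Klf1* stayed under 1 CPM in every library of both groups. *Nfe2* and *Zfpm1*, factors of the erythroid and megakaryocyte lineages, gave 19.97, 26.5 and 15.6 CPM against 9.04, 9.3 and 11.4 CPM and 43.2, 42.4 and 37.8 CPM against 18.6, 17.4 and 21.3 CPM (limma adjusted P = 0.022 and 0.00016). The call of *Nfe2* was lost without sgCbfb replicate 1 or 2 or sgMed12 replicate 1. *Itgb3* was the member higher in sgMed12 (17.8, 17.7 and 19.3 CPM against 6.86, 6.43 and 3.02 CPM).

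A list of stem and progenitor genes had 5 of 22 tested members higher in sgCbfb LPs and none higher in sgMed12 LPs, by limma and by edgeR. At an unadjusted P under 0.05, 9 were higher in each group. Without sgMed12 replicate 2, 5 were called higher in sgCbfb and 1 in sgMed12 LPs. Without sgCbfb replicate 1 these counts were 4 and 1, so the absence of calls in sgMed12 depended on single libraries. *Erg*, a factor of blood stem cells, gave 68.3, 58.5 and 49.4 CPM in sgCbfb and 21.8, 21.5 and 15.04 CPM in sgMed12 libraries (difference -1.55, SE 0.27, limma adjusted P = 0.00017). *Kit*, the receptor for SCF, gave 54.3, 79.4 and 72.0 CPM against 29.4, 34.3 and 34.6 CPM and *Lmo2* 33.1, 26.3 and 28.7 CPM against 13.8, 14.8 and 9.65 CPM (limma adjusted P = 0.00052 and 0.00052). The call of *Kit* was lost without sgCbfb replicate 2 or sgMed12 replicate 1. *Spi1*, which encodes PU.1, overlapped between the groups at 110.0, 111 and 86.4 CPM and 81.9, 110.1 and 76.9 CPM (limma adjusted P = 0.35). *Bcl11a* gave 56.6, 57.9 and 58.4 CPM and 69.5, 106 and 98.5 CPM, a difference of 0.63 (limma adjusted P = 0.0064) under the 2-fold limit.

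The Notch pathway showed no common direction. Of 14 tested receptors and targets, *Notch1* and *Il2ra* were higher in sgCbfb and *Hes1* and *Bcl11b* in sgMed12 LPs. *Notch1* gave 396, 455 and 372 CPM in sgCbfb and 128, 134 and 157 CPM in sgMed12 libraries, 2.92-fold (difference -1.54, SE 0.12, limma adjusted P = 5.7e-10), with 201, 214 and 153 CPM in sgControl. *Il2ra*, which encodes CD25 and marks the second stage of thymic T-cell development, gave 17.0, 35.9 and 14.6 CPM against 0.847, 0.871 and 2.55 CPM (limma adjusted P = 1.3e-06), and the sgControl libraries held 1.32, 0 and 1.22 CPM.

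*Hes1*, a direct Notch target, was the reverse. It gave 23.2, 12.8 and 11.1 CPM in sgMed12, 5.96, 9.38 and 4.53 CPM in sgCbfb and 1.85, 3.25 and 1.95 CPM in sgControl libraries (difference 1.11, SE 0.33, limma adjusted P = 0.019). Both deletions thus stood above sgControl for *Hes1*, with sgMed12 higher, although the call was lost without sgCbfb replicate 1 or 3 or sgMed12 replicate 1. *Notch3* overlapped between the groups at 4.17, 8.31 and 1.51 CPM and 3.39, 1.45 and 1.42 CPM (limma adjusted P = 0.29). *Dtx1* was at 0 in 5 of the 6 libraries and was not tested. *Gata3*, a T-lineage factor, overlapped at 27.1, 23.1 and 20.4 CPM and 22.6, 25.9 and 29.5 CPM (limma adjusted P = 0.69).

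Interferon-stimulated genes had the most calls of any list. Of 38 tested, 28 were higher in sgCbfb LPs and none in sgMed12 LPs, by limma and by edgeR alike, with a median difference of -2.11 against -0.02 over all genes tested. At an unadjusted P under 0.05, 37 were higher in sgCbfb LPs and 0 in sgMed12 LPs. All 28 had groups that did not overlap, which the call on these same libraries favours, and 28 were called without sgMed12 replicate 2. *Isg15*, a ubiquitin-like antiviral protein, gave 118, 34.6 and 23.4 CPM in sgCbfb and 1.13, 2.32 and 3.41 CPM in sgMed12 libraries (difference -3.90, SE 0.46, limma adjusted P = 6.7e-07), with 2.64, 2.07 and 0.487 CPM in sgControl. *Rtp4* gave 178, 119.6 and 74.6 CPM against 6.78, 15.98 and 7.38 CPM, and *Ifitm3*, a membrane protein that blocks virus entry, 123, 51.2 and 24.2 CPM against 1.7, 4.07 and 5.96 CPM (limma adjusted P = 1.5e-08 and 4.5e-07).

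The sgCbfb libraries were unequal for these genes. The 28 called members summed to 2583.7, 1659.1 and 1072.4 CPM in sgCbfb replicates 1 to 3, to 312.8, 415.0 and 329.5 CPM in sgMed12 and to 287.5, 275.2 and 249.3 CPM in sgControl libraries. For 27 of the 28, sgCbfb replicate 1 was the highest of the 3, and for 27 replicate 3 was the lowest, with a median ratio of replicate 1 to replicate 3 of 2.44. Without sgCbfb replicate 1, 24 members were still called higher in sgCbfb LPs. *Bst2*, a membrane protein that tethers viruses, did not go with the rest: it gave 324, 146 and 98.0 CPM in sgCbfb and 413, 125 and 323 CPM in sgMed12 libraries, which overlapped (limma adjusted P = 0.19), and without sgCbfb replicate 1 it was the 1 member called higher in sgMed12 LPs. *Irf7*, a transcription factor of the interferon response, gave 96.9, 59.0 and 34.0 CPM against 4.8, 6.1 and 7.66 CPM (limma adjusted P = 1e-06). The interferon receptor genes *Ifnar1* and *Ifnar2* were not called, at means of 26.7 and 28.5 CPM and of 67.9 and 94.5 CPM in sgCbfb and sgMed12 LPs.

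**Figure D3:**
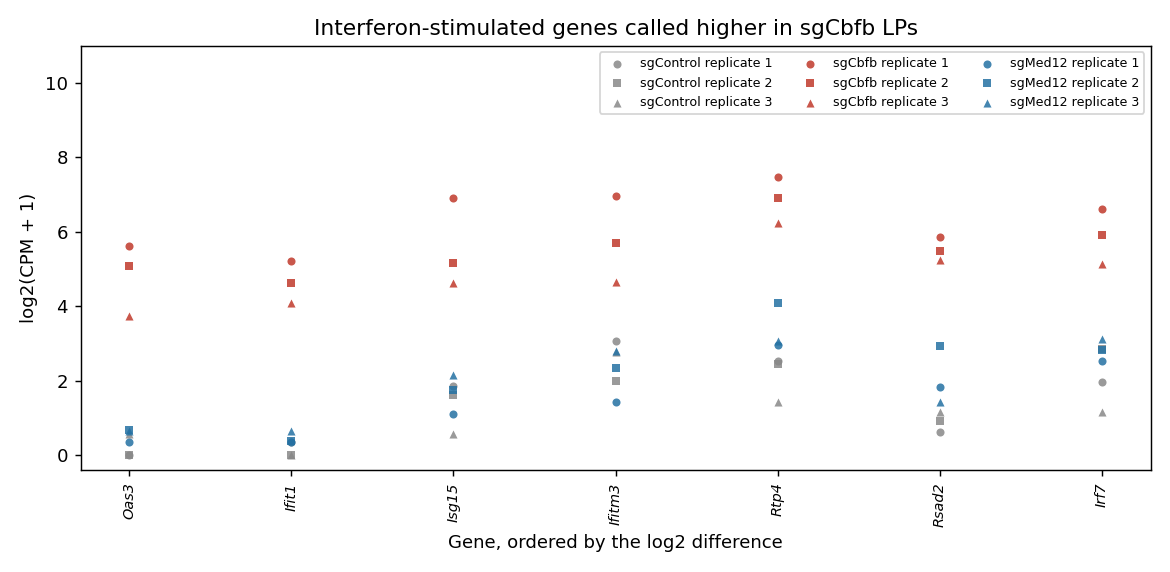
Level, as log2(CPM + 1), of 7 of the 28 interferon-stimulated genes called higher in sgCbfb LPs, those whose values the text gives, in each sgControl (grey), sgCbfb (red) and sgMed12 (blue) library, with a marker shape for each replicate. The sgCbfb points lie above the sgMed12 points for all 7 genes, and sgCbfb replicate 1 is the highest of them in each.

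Promoter windows of 3 of these genes are shown because interferon-stimulated promoters are known to carry a repeat of GAAA that binds IRF proteins. They are the 3 called members with the smallest adjusted P whose RefSeq window (GRCm38.p6, 250 bases before to 50 after the start) holds GAAA, any 2 bases and GAAA again on either strand, and they were chosen after their values were seen. Capitals mark the match, and the letters run 5′ to 3′ on the strand of the gene.
Ifit1 (chr19:34640639-34640938, plus strand): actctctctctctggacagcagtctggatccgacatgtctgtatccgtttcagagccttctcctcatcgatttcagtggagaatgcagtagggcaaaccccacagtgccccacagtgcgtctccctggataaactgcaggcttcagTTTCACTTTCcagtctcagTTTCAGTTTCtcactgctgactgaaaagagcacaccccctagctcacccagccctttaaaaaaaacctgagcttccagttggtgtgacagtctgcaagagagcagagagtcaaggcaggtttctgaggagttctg
Oas3 (chr5:120777610-120777909, minus strand): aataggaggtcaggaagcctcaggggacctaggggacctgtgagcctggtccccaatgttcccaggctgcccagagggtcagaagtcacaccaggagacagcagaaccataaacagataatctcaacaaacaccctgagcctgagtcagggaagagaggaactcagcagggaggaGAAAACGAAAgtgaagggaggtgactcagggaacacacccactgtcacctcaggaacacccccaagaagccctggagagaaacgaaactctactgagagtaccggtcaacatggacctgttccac
Rsad2 (chr12:26456403-26456702, minus strand): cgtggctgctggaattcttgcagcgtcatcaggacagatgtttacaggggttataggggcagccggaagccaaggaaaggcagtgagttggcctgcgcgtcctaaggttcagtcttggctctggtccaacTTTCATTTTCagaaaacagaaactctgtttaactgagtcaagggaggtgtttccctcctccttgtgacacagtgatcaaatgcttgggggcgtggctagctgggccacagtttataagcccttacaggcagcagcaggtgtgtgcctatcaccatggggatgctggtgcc

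*Ifit1*, which binds foreign RNA, gave 36.1, 23.6 and 15.9 CPM in sgCbfb and 0.282, 0.29 and 0.567 CPM in sgMed12 libraries. It had 272 and 4 reads over the groups (ratio 64.6, exact 95% counting interval 24.9 to 239.0). *Oas3*, which makes the signal for RNA cleavage, had 333 and 5 reads (ratio 63.3, interval 26.8 to 196.0). Its sgCbfb libraries were unequal, at 48.3, 32.7 and 12.3 CPM. *Rsad2*, an antiviral enzyme also called viperin, gave 56.9, 44.0 and 36.5 CPM against 2.54, 6.68 and 1.7 CPM (difference -3.46, SE 0.36, limma adjusted P = 1.2e-07). This motif is in 3.49% of all 27025 windows, and in 11 of the 19 windows found for the 28 called members. A window was found for only 67.9% of the 28, so this share is void as a comparison, and it says nothing on which factor acts there.

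Windows were also read for the 3 genes with the largest limma difference in each direction among those with reads in all 6 libraries, to look for the RUNX hexamers TGTGGT and TGCGGT on both strands. None of the 6 windows holds either, so no letter is in capitals, which says only that these letters are not in these 300 bases.
5830411N06Rik (chr7:140247051-140247350, plus strand, higher in sgMed12): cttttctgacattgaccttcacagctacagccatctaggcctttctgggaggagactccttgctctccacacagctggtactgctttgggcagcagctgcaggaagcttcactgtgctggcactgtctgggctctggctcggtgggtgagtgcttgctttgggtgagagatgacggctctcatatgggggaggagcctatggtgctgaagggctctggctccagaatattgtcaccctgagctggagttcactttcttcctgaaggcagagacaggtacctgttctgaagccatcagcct
Jchain (chr5:88527848-88528147, minus strand, higher in sgMed12): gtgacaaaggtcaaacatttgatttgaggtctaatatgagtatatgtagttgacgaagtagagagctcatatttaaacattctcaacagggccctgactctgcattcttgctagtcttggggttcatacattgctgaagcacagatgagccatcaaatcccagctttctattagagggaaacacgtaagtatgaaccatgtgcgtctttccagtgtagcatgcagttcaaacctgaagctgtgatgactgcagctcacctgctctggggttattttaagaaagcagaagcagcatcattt
Ccr9 (chr9:123766961-123767260, plus strand, higher in sgMed12): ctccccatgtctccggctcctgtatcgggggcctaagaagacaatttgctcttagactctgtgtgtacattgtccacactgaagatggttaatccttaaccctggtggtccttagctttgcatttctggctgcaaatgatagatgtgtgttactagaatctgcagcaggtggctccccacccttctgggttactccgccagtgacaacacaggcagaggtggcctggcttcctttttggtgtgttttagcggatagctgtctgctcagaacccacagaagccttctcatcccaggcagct
Mrc1 (chr2:14229164-14229463, plus strand, higher in sgCbfb): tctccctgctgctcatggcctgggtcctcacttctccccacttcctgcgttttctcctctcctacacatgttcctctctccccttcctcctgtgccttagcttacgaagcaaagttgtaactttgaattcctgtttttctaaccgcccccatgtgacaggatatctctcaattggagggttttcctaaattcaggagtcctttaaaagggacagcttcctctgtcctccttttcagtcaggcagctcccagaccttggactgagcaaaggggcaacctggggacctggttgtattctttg
F13a1 (chr13:37050195-37050494, minus strand, higher in sgCbfb): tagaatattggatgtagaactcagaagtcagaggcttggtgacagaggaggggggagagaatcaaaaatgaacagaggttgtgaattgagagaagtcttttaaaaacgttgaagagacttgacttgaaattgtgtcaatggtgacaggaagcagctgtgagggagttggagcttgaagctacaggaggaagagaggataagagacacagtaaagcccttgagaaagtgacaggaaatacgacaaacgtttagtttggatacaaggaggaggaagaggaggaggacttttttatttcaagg
Dntt (chr19:41029025-41029324, plus strand, higher in sgCbfb): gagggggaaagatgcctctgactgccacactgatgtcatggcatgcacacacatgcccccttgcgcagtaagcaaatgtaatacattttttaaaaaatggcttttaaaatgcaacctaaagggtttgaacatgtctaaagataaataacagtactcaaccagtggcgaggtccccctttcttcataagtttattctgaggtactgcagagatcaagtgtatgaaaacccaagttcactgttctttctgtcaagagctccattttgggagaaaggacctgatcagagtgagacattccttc

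A hexamer was in 39 of the 149 windows found for the genes higher in sgMed12 and in 60 of the 279 found for those higher in sgCbfb, beside 22.5% of all windows. Windows were found for 64.2% and 77.9% of the called genes, under the 80% needed, so these shares are void as a comparison.

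Genes of glycolysis and the hypoxia response had 6 of 27 tested members higher in sgCbfb LPs and none in sgMed12 LPs, by limma and by edgeR, with a median difference of -0.59. All 27 had a negative difference, and 23 of them and 0 in the other direction passed an unadjusted P under 0.05. Here the sgControl libraries lay with sgCbfb for several members. *Ddit4*, a stress-induced inhibitor of mTORC1, gave 79.6, 108 and 89.4 CPM in sgCbfb, 26.3, 36.3 and 30.7 CPM in sgMed12 and 69.4, 87.7 and 81.1 CPM in sgControl libraries (difference -1.54, SE 0.14, limma adjusted P = 1.2e-08). *Bnip3*, a mitophagy receptor, gave 85.6, 140.2 and 96.7, 42.7, 22.1 and 38.9 and 124, 139.7 and 100.3 CPM in the same order (limma adjusted P = 7.3e-06). For both, every sgMed12 library lay under all sgCbfb and sgControl libraries.

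*P4ha1*, a collagen prolyl hydroxylase subunit, gave 60.5, 79.6 and 74.8 CPM in sgCbfb and 31.4, 20.1 and 28.7 CPM in sgMed12 libraries, and *Egln3*, an oxygen sensor, 59.0, 86.6 and 63.2 CPM against 28.0, 23.8 and 27.2 CPM (limma adjusted P = 1.7e-06 and 7.6e-05). *Ndrg1* had the largest difference of the list, at 49.5, 61.9 and 46.6 CPM against 9.89, 6.68 and 7.95 CPM, 6.45-fold (difference -2.55, SE 0.22, limma adjusted P = 3.2e-09), with 22.7, 21.3 and 12.4 CPM in sgControl, between both groups. The sixth member was *Pgk1*, a glycolytic kinase. Other enzymes of glycolysis differed less, such as *Aldoa* with means of 734 and 492 CPM and *Ldha* with 599.7 and 559 CPM in sgCbfb and sgMed12 LPs.

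Cytokine receptors and adhesion molecules were divided between the groups. Of 28 tested cytokine receptors, 4 were higher in sgCbfb and 2 in sgMed12 LPs. *Il6st*, the signalling chain of the IL-6 receptor family, gave 133, 136 and 106 CPM in sgCbfb and 31.9, 28.5 and 33.8 CPM in sgMed12 libraries, 3.99-fold (limma adjusted P = 3e-10). *Il7r* and *Flt3*, receptors for cytokines in the culture, were not called, at means of 101 and 136 CPM and of 219.7 and 176 CPM. Of 31 tested adhesion and homing genes, 5 were higher in each group. *Cd44*, a hyaluronan receptor used to stage thymocytes, gave 341, 362 and 324 CPM in sgCbfb and 70.6, 109 and 91.1 CPM in sgMed12 libraries, 3.79-fold (difference -1.93, SE 0.13, limma adjusted P = 1.6e-11). *Itga4*, an integrin of lymphocyte homing, gave 609, 541 and 545 CPM against 208, 223 and 281 CPM, whereas *Selplg*, the selectin ligand, was higher in sgMed12 at 177, 183 and 183 CPM against 85.9, 94.9 and 76.1 CPM (limma adjusted P = 6.3e-08 and 2.5e-08).

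Smaller groups held few calls. Of 25 tested immediate early genes, *Jund* and *Fosb* were higher in sgMed12 and *Klf2* and *Dusp2* in sgCbfb LPs. *Jund*, an AP-1 subunit, gave 445, 265 and 319 CPM in sgMed12 and 132, 153 and 132 CPM in sgCbfb libraries, and *Klf2*, a factor of lymphocyte quiescence, 49.2, 29.9 and 33.2 CPM against 94.2, 166 and 108 CPM (limma adjusted P = 1.2e-07 and 1.9e-06). Of 17 TGF-beta and BMP responders, *Id1*, an inhibitor of E proteins, was higher in sgCbfb at 40.2, 60.1 and 51.9 CPM against 7.91, 8.43 and 6.53 CPM (limma adjusted P = 2.2e-07), and *Pmepa1* and *Ldlrad4* were higher in sgMed12. Of 18 G1 cyclins and CDK inhibitors, the inhibitors *Cdkn1c* and *Cdkn2a* were higher in sgCbfb, *Cdkn2a* at 23.3, 38.1 and 29.2 CPM against 15.3, 12.2 and 7.66 CPM (limma adjusted P = 0.00038). Of 17 MHC class I genes, *H2-K1* and *H2-T22* were higher in sgCbfb, and *H2-K1* shared the unequal sgCbfb libraries of the interferon genes at 339.5, 197 and 126 CPM.

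None of 43 tested genes of DNA replication and mitosis were called by limma or edgeR, although 6 were higher and 18 lower in sgMed12 LPs at an unadjusted P under 0.05. The limma adjusted P was under 0.05 for 10 of the 43, without the fold and level needed, and 34 had a negative difference. None of 4 tested mast cell, basophil and eosinophil genes were called by either tool. At an unadjusted P under 0.05, 1 was higher and 1 lower, and 1 had a limma adjusted P under 0.05. Among dendritic cell and MHC class II genes 2 of 21 were higher in sgMed12 and 3 in sgCbfb LPs, and *Cox6a2*, which is high in plasmacytoid dendritic cells, gave 312, 277 and 325 CPM against 77.8, 87.7 and 78.1 CPM (limma adjusted P = 1.8e-12). The p53 targets had 1 call of 26 tested (*Sesn1*), Wnt targets 1 of 10 (*Cd44*), amino acid starvation genes 1 of 26 (*Trib3*), each higher in sgCbfb. Sterol and fatty acid synthesis had 1 of 28 (*Lss*) and stromal genes 1 of 14 (*Pdgfrb*), each higher in sgMed12. Without sgMed12 replicate 2, 3 stromal genes and 1 p53 target were called higher in sgMed12. Without sgCbfb replicate 1, *H2-K1*, *Cdkn1c*, *Mpo* and *Sesn1* were no longer called; *Cebpb* and *Zbtb7b* were lost without sgCbfb replicate 2, *Trib3* without sgCbfb replicate 3, and *Fosb*, *Pdgfrb* and *Sesn1* without sgMed12 replicate 1. *Cebpb* and *Trib3* were also lost without sgMed12 replicate 2, and *Trib3* without sgMed12 replicate 3. Early T-lineage factors had 1 call of 14 in each direction (*Bcl11b* and *Zbtb7b*), and granulocyte genes 1 higher in sgMed12 (*Nkg7*) and 2 in sgCbfb (*Mpo* and *Cebpb*) of 10.

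**Figure D4:**
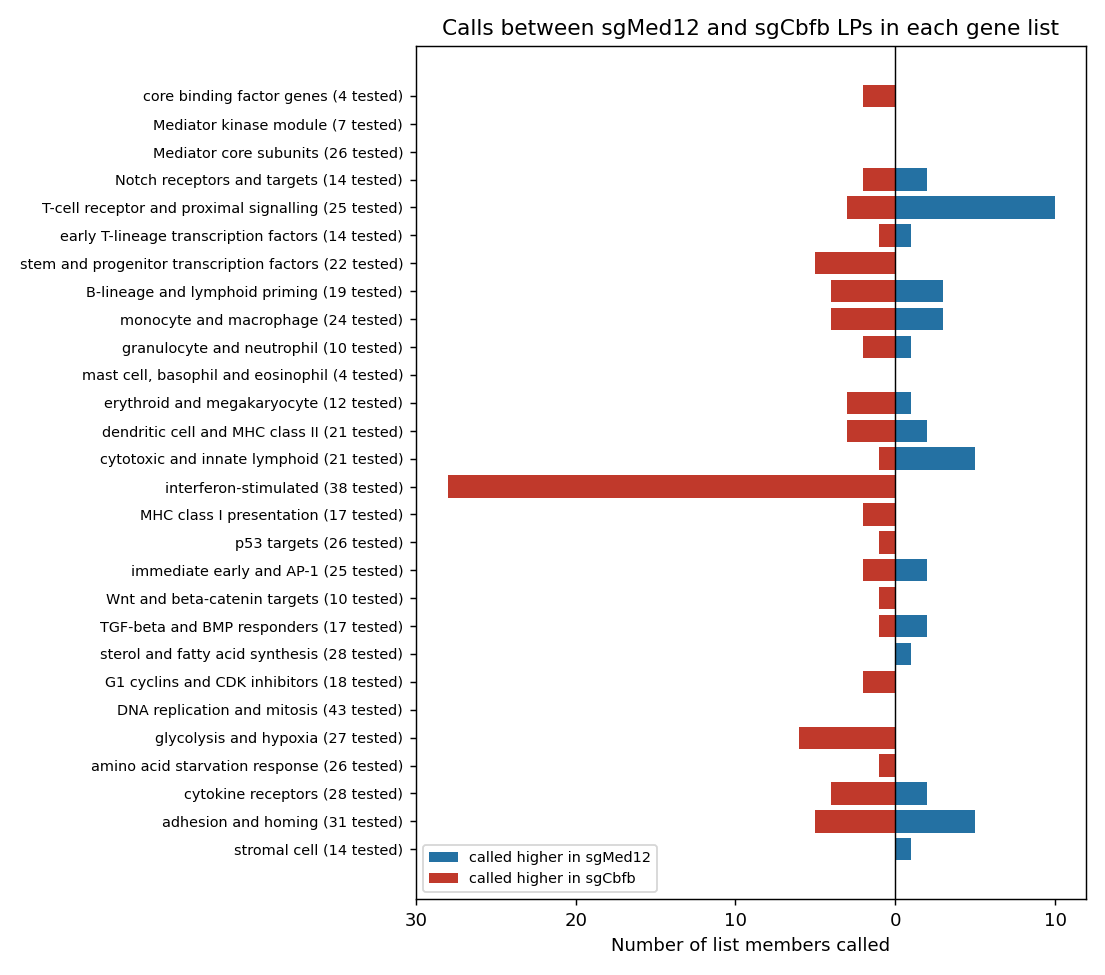
Number of members of each gene list called higher in sgMed12 LPs (blue, to the right of 0) and higher in sgCbfb LPs (red, to the left of 0), with the number tested in brackets. The interferon-stimulated list has 28 calls in sgCbfb, and the T-cell receptor list has 10 in sgMed12. Over all genes tested, 1.76% were called higher in sgMed12 and 2.72% in sgCbfb LPs.

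The sgControl libraries, left out of the contrast, show on which side a difference lies. On the log2(CPM + 1) scale the sgControl mean was nearer to the sgMed12 than to the sgCbfb mean for 192 of the 232 genes higher in sgMed12 (82.8%) and for 317 of the 358 higher in sgCbfb (88.5%). It lay beyond the sgMed12 mean for 79 and 155 of them and beyond the sgCbfb mean for 13 and 4. This is a description with no test, and it was not repeated without sgMed12 replicate 2, the sgMed12 library most like sgControl.

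The other 40 and 41 genes, where sgControl was nearer to sgCbfb, include *Bnip3*, *Ddit4*, *Hes1* and *Trgc4*. Others were chosen here after their values were seen, from genes whose sgControl mean lay at most 0.25 of the way from the sgCbfb to the sgMed12 mean. *Rgs1*, a regulator of G-protein signals, gave 17.8, 13.1 and 8.52 CPM in sgMed12, 4.17, 3.22 and 2.27 CPM in sgCbfb and 3.96, 2.95 and 3.17 CPM in sgControl libraries (difference 1.71, SE 0.33, limma adjusted P = 0.00051). The chemokine *Ccl9* gave 7.35, 17.1 and 12.8, 3.58, 4.83 and 2.02 and 5.01, 2.66 and 2.44 CPM in that order. *Calcrl*, a peptide hormone receptor, lay the other way at 7.91, 7.55 and 9.37, 19.7, 13.9 and 20.9 and 17.1, 18.3 and 18.3 CPM (limma adjusted P = 0.0053 and 0.0017).

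The first experiment gives the same guide pool against *Cbfb* in separate libraries, 3 of sgCbfb and 3 of sgControl LPs with 1363263 to 1743319 reads over the 12 libraries of that experiment. There 145 of 13239 tested genes (1.1%) were higher and 79 (0.597%) lower with sgCbfb than with sgControl. Of the 232 genes higher in sgMed12 here, 55 (23.7%) were lower with sgCbfb in that experiment and 0 were higher. Of the 358 higher in sgCbfb, 108 (30.2%) were higher there and 0 lower. These are 69.6% of the 79 and 74.5% of the 145. By edgeR 74 of the 232 were lower and 0 higher, and 116 of the 358 were higher and 1 lower. At an unadjusted P under 0.05, 127 of the 232 were lower and 3 higher, and 214 of the 358 were higher and 1 lower. The median difference with sgCbfb was -0.86 over the 232 and 1.0 over the 358, and 0.00 over all genes tested there. The count of 145 fell to 88 without replicate 1 of the sgCbfb LPs of the first experiment.

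In those libraries (mean ± SD, n = 3) *Mrc1* was at 4.86 ± 2.65 CPM with sgControl and 221 ± 2.69 CPM with sgCbfb, *Dntt* at 39.4 ± 7.71 CPM with sgControl and 251 ± 62.7 CPM with sgCbfb, and *Jchain* at 778 ± 108 CPM with sgControl and 41.2 ± 15.3 CPM with sgCbfb. *Bcl11b* was at 76.3 ± 12.2 CPM with sgControl and 13.6 ± 6.26 CPM with sgCbfb, and *Ccr9* at 989 ± 33.3 CPM with sgControl and 235 ± 20.4 CPM with sgCbfb. All 5 were called there in the direction of the sgCbfb side. Of the 28 called interferon genes, 6 were higher with sgCbfb in the first experiment and 0 lower. *Isg15* was at 2.44 ± 2.48 CPM with sgControl and 4.75 ± 3.3 CPM with sgCbfb there (limma adjusted P = 0.73). Of the 40 and 41 genes where sgControl lay nearer to sgCbfb, none were called with sgCbfb in the first experiment by limma. By edgeR 0 of the 40 were called and 1 of the 41 was lower, and at an unadjusted P under 0.05, 2 of the 40 were higher and 0 lower, and 5 of the 41 were higher and 1 lower.

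**Figure D5:**
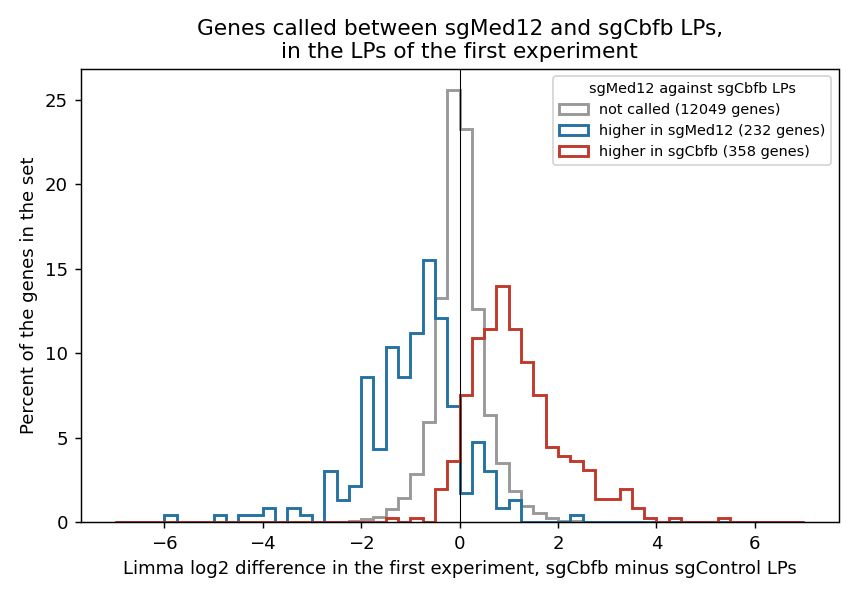
Limma log2 difference between sgCbfb and sgControl LPs of the first experiment (x axis) for genes called higher in sgMed12 (blue, 232), called higher in sgCbfb (red, 358) or not called (grey) in the second, as a percent of each set (y axis) in bins of equal width. The blue set has its median at -0.86, the red set at 1.0.

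Notch stimulation was read in the same experiment by comparing sgControl Phase 1 cells, which were cultured on OP9-DLL4 stroma that carries a Notch ligand, with sgControl LPs. There 218 genes (1.65%) were higher and 231 (1.74%) lower in Phase 1. Of the 232 genes higher in sgMed12, 23 (9.91%) were higher and 34 (14.7%) lower in Phase 1. Of the 358 higher in sgCbfb, 38 (10.6%) were higher and 26 (7.26%) lower. Both sets thus held genes of either direction, *Bcl11b* and *Lck* among those higher in Phase 1 and in sgMed12 LPs, *Il2ra* and *Notch1* among those higher in Phase 1 and in sgCbfb LPs. *Jchain* and *Ccr9* were lower in Phase 1 and higher in sgMed12 LPs, and *Dntt* and *F13a1* were lower in Phase 1 and higher in sgCbfb LPs. The median Phase 1 difference was -0.11 over the 232, -0.06 over the 358 and -0.07 over all genes tested.

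Of the 87 genes under the naming rule, 30 share exon bases with another annotated gene, 27 of them with an antisense gene, among them *Runx1*, *Runx2*, *Notch1*, *Ccr9*, *Trdc*, *F13a1*, *Ctsw*, *Bace1*, *Irf7* and *Ndrg1*. Whether reads were counted by strand is not given in the sources used here, so reads of such pairs may be joined. *Med12*, *Lck* and *Rtp4* share bases with a gene on the same strand, which counting by strand would not separate.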

How the data were processed

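Per the labels and the study's methods, the authors prepared QuantSeq FWD 3′ libraries from 500 ng of total RNA, read 75 bases, trimmed reads with fastp and mapped them to mm10 with STAR; versions are not given in the sources used here. The deposited values are named TPM but are CPM: at least 99.98% of the values above 0 were whole multiples (within 0.05) of what 1 read is worth, so reads were recovered. An unnamed last line holds the value of 1 read and was left out; the deposited sgControl mean was not used.

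Only genes reaching 1 CPM in 3 or more of the 12 libraries entered the test, for which limma 3.58.1 (R 4.3.3) was fitted to log2(CPM + 1), all 4 groups of the second experiment in one fit, with moderated, trended variances and Benjamini-Hochberg adjustment. edgeR 4.0.16 (quasi-likelihood, TMM) was run on recovered reads. Groups of 3 cannot give an exact two-sided permutation P under 0.1. On data simulated for sgMed12 against sgCbfb, limma recovered 100 of 100 genes changed 3-fold and 100 of 100 changed 4-fold, with 1 false call among 12601. The changed genes were all over 20 CPM, and the simulated replicates varied independently. The simulation therefore does not check calls near the 2-fold or 10 CPM limits, nor replicates placed as unequally as those here.

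The comparison and the gene lists were chosen with earlier results of these data known. Genes were named if they were targeted or RUNX genes, named by the study, among the 8 largest differences per direction (reads in all 6 libraries, no overlap), among up to 4 called per list by adjusted P, or among the 3 highest per direction with 3 reads or fewer in each library of the lower group. Of 748 list entries 747 matched. Positions are from GENCODE M21, and promoter windows from RefSeq (GRCm38.p6), 1 window per gene. Some listed genes are not reported here. Other software was matplotlib 3.10.9, scipy 1.17.1 and pandas 2.3.3.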

Additional observations from a re-analysis of the deposited data

How the results depend on the processing

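Without the fold threshold, 694 genes were higher in sgMed12 and 1100 in sgCbfb LPs, and with a mean over 20 CPM 138 were higher in sgMed12. Leaving out 1 library at a time gave 203 to 348 genes higher in sgMed12, the highest without sgMed12 replicate 2, and 312 to 421 higher in sgCbfb. In the first experiment it gave 88 to 139 genes higher and 59 to 74 lower with sgCbfb, with the lowest higher count without sgCbfb replicate 1. For Phase 1 it gave 183 to 235 genes higher and 148 to 361 lower, the lowest without LP sgControl replicate 1 and the highest without Phase 1 sgControl replicate 1. The causes were not tested. Other settings left the main counts within 1.5 times: pseudocounts, filters, scaling, edgeR (244 and 358) and the variances.

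Replicate numbers did not pair the samples: deviations of same-numbered sgMed12 and sgCbfb libraries correlated at -0.11, -0.13 and 0.03 over 8222 genes, and not every library correlated best with its own number. With the replicate number as a block, 233 genes were higher in sgMed12 and 359 in sgCbfb LPs. Of 1311 values of the called named genes, 1270 stayed called in the same direction, 41 fell short of the call and 0 reversed. *Hes1* and *Nfe2* each lost their call in 6 of 18 alternatives, and 55 of 73 genes lost it in none. Groups of 3 libraries and 3354483 to 3969498 reads limit what low genes can show.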
